A study of Mus musculus with 19 samples.

Results

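The comparison described here is between iPSC of the WSB/EiJ strain, grown in 2iS, and iPSC of the 129S1/SvImJ strain, grown in ESC/LIF. It rests on 8 of the 19 libraries of the series, 4 WSB clones (12, 23, 25 and 28) and 4 129 clones (1, 5, 8 and 17), chosen by their titles, with 2 male and 2 female clones in each group. Of the 22009 autosomal genes listed, 2016 had enough counts to be tested. Strain and medium changed together between the groups, so that the part of each cannot be told apart within this comparison. Genes of the sex chromosomes were left out of the results.

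All 8 clones came from fibroblasts of pooled littermate embryos and carried a lentiviral cassette that drives Oct4, Klf4, Sox2 and Myc constitutively and was not removed. ESC/LIF is a serum medium with leukemia inhibitory factor, and 2iS is the same medium with CHIR99201, a GSK3B inhibitor, and PD0325901, a MEK inhibitor. The WSB clones were derived and kept in 2iS and were at passage 16 to 20. The 129 clones were derived and kept in ESC/LIF and were at passage 17 to 21. Each clone was depleted of feeder cells and sequenced once, so that a group of 4 clones measures the spread between clones of 1 fibroblast pool. Beside them stand 129 clones 1 and 17 after transfer to 2iS (passages 31 and 30), 1 WSB ESC and 1 129 ESC library (passage 6, in serum with both inhibitors), and 2 female NOD/ShiLtJ iPSC in 2iS. For the marker check and the levels of E230016M11Rik and C330022C24Rik, 1 129 EpiSC line and 1 NOD EpiSC line were used. The 129 EpiSC line is of a 129/Sv and not a 129S1/SvImJ background.

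Mouse pluripotent cells are held in a naive state by LIF, which acts through JAK kinases and STAT3, and by transcription factors such as Nanog, Klf4 and Esrrb. MEK inhibition blocks the FGF/ERK signal that pushes cells towards differentiation, and GSK3B inhibition stabilises beta-catenin, the effector of Wnt signalling. WSB/EiJ is a wild-derived strain from which iPSC are hard to obtain in LIF alone. 129S1/SvImJ is a laboratory strain that yields ESC and iPSC readily.

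The 8 libraries held 92996 to 226794 read pairs counted on genes, which was 1.42% to 1.74% of the uniquely aligned pairs. A count of 3 stood for 13.8 to 30.7 CPM (counts per 1000000 read pairs on genes, with TMM scaling), which limits what can be said of weakly expressed genes. The titles and the source names of the samples name different conditions. The titles were followed, and the Y-linked genes Uty, Kdm5d, Eif2s3y and Ddx3y had counts that went against the stated sex in 0 libraries. With the source names in place of the titles, 16 autosomal genes differed. The libraries were made with a kit that marks strand, but the strand setting of the counting is not given in the sources used here. Exons that overlap those of a gene on the opposite strand were present in 25.3% of the listed autosomal genes, in 55.4% of those tested and in 61.6% of those called below. The strand that was counted is unknown, so a gene's count can hold reads of its partner or reads antisense to the gene itself. How far it does was not tested, nor was the reason why so few aligned pairs fell on genes. The CPM below are those of the deposited counts under each gene's name. The partner with the longest overlap is named beside a called gene that has one. Reads of both strains were aligned to the GRCm38 reference, and whether alleles of WSB and 129 aligned equally well was not tested.

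The label of pluripotent cells held in both groups. All 10 pluripotent stem cell markers listed, among them Pou5f1, Sox2, Nanog and Zfp42, had counts, and their summed level was 2090 to 2740 CPM in WSB and 2450 to 2870 CPM in 129 clones. The summed level of the EpiSC markers with a listed autosomal gene was 5.06 to 33.8 CPM in WSB, 13.6 to 41.4 CPM in 129 clones, 70.3 and 75.6 CPM in the WSB and 129 ESC, 394 CPM in the 129 EpiSC and 63.1 CPM in the NOD EpiSC line. These markers thus set the 129 EpiSC line apart, but in the NOD EpiSC line they were below the level of both ESC libraries. Markers of endoderm, trophoblast, neural cells and mesoderm were too low to be tested in any case. Of 28 fibroblast markers, 13 were at 0 in all 8 libraries, among them Col1a2, Thy1 and Postn, but the summed level was 689 to 880 CPM in WSB and 450 to 648 CPM in 129 clones, without overlap. Most of that sum in the iPSC came from Fn1 and Sparc. Of the weaker markers, Lum (13 counts over WSB and 0 over 129 clones), Thbs1 (17 and 5) and Col5a1 (10 and 3) were higher in WSB. Tagln (32 and 57) and Acta2 (1 and 2) were lower. The summed level reached 3410 CPM in the WSB ESC and 4100 CPM in the 129 ESC library, for which removal of feeder cells is not described. There Fn1 was at 958 and 1230 CPM and Sparc at 176 and 246 CPM, so other markers gave most of the sum. The part of such cells in the results was not tested.

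In the comparison of WSB iPSC with 129 iPSC in ESC/LIF, 237 of 2016 autosomal genes were called (11.8%), of which 118 (5.85%) were higher and 119 (5.9%) lower in WSB (edgeR quasi-likelihood test, Benjamini-Hochberg adjusted p under 0.05). In 207 of them (10.3% of those tested) every WSB library lay on one side of every 129 library, with 94 above and 113 below, and 161 changed by at least 1 on the log2 scale. Over all tested genes, called or not, the groups did not overlap in 366 of 2016 (18.2%). The median log2 fold change of all tested genes was -0.01. DESeq2 called 199 genes (9.87%), 198 of them among the 237. Among genes without opposite-strand exons 91 of 899 were called (59 higher and 32 lower), and among those with such exons 146 of 1117 were called (59 higher and 87 lower). Leaving out 1 library gave 181 genes without WSB clone 12 and 321 without WSB clone 28 as the extremes. Of the 237 genes, 149 were called in every such fit that tested them.

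**Figure D1:**
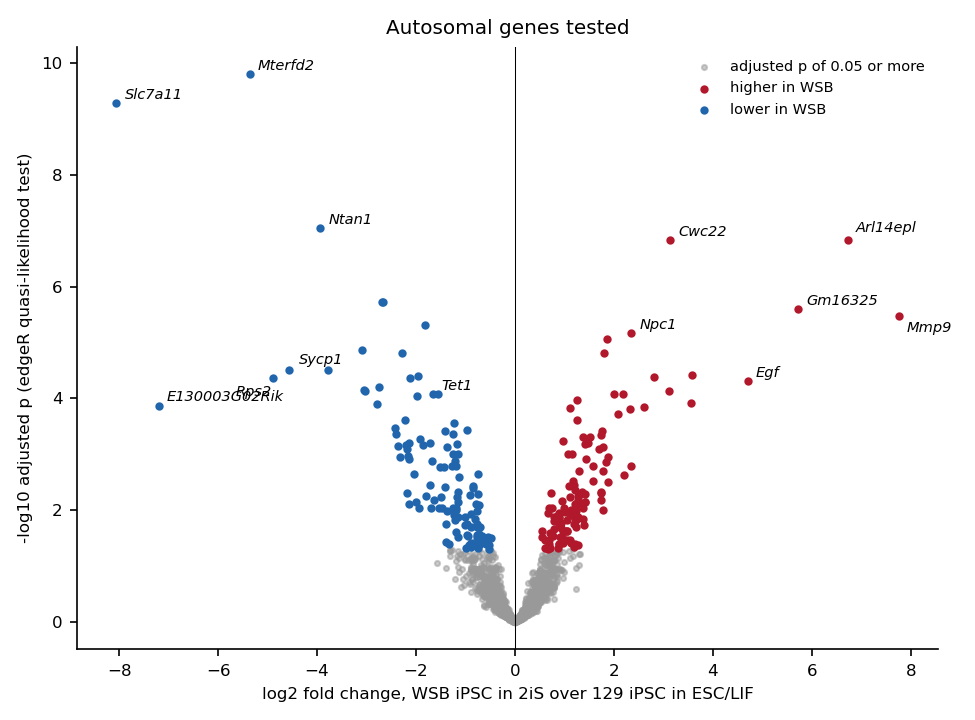
Autosomal genes tested between WSB iPSC in 2iS and 129 iPSC in ESC/LIF (4 libraries each), with the log2 fold change on the x axis and -log10 of the adjusted p of edgeR on the y axis. Red points are the 118 genes higher in WSB, blue points the 119 lower and grey points those not called, and Mmp9 and Slc7a11 lie at the far right and far left.

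Among the genes higher in WSB, some were nearly silent in 129 cells in either medium. Mmp9, a secreted protease that degrades extracellular matrix, lies on the plus strand of chromosome 2 from 164940780 to 164955850 (GRCm38) and overlaps no gene on the opposite strand. It stood at 177, 158, 131 and 219.5 CPM in WSB clones 12, 23, 25 and 28 and had 0 counts in all 4 of the 129 libraries in ESC/LIF and in both in 2iS. It was thus at least 38.4-fold higher in WSB, against a floor of 3 counts over the 129 group (adjusted p = 3.29e-06, edgeR). Arl14epl, on chromosome 18, stood at 207, 261, 262 and 203 CPM in WSB, and the 129 libraries in ESC/LIF held 1 count in all. That count gives a ratio of 151 with an exact 95% counting interval of 26.7 to 6030 (adjusted p = 1.45e-07, edgeR). The 129 libraries in 2iS were at 8.6 and 7.34 CPM, and the NOD clones at 66.3 and 47.6 CPM. Both genes were also high in the WSB ESC library, at 360.3 CPM for Mmp9 and 193 CPM for Arl14epl, against 18.9 and 31.5 CPM in the 129 ESC library.

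Cwc22 encodes a spliceosome protein and lies within a segment of chromosome 2 (77881159 to 77946375, minus strand) that is known to vary in copy number between mouse strains and to be present in many copies in WSB/EiJ. It stood at 637, 586, 908 and 616 CPM in WSB and at 87.4, 74.9, 75 and 102 CPM in 129 clones. The difference was 8.75-fold (log2 fold change 3.13 ± 0.23, SE, adjusted p = 1.45e-07, edgeR) and the groups lay far apart. In 129 cells in 2iS it was at 86 and 80.8 CPM, in the WSB ESC library at 1151 CPM and in the 129 ESC library at 69.3 CPM. The copies were not separated in the counts, and DNA copy number was not measured here.

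Npc1, the cholesterol transporter of the late endosome, stood at 739, 679, 431 and 785 CPM in WSB and at 115, 123, 145 and 184 CPM in 129 clones (5.11-fold, adjusted p = 6.77e-06, edgeR). Its partner on the opposite strand, 3110002H16Rik, shares 511 bp of exons and had a log2 fold change of 0.71 (adjusted p = 0.197). The NOD clones were near WSB for Npc1, at 556 and 707 CPM, and 129 cells in 2iS near 129 cells in ESC/LIF, at 163 and 169 CPM. Ythdc2, an RNA helicase that binds methylated adenosine, was at 86 to 186 CPM in WSB and 19.99 to 30.7 CPM in 129 clones (6.07-fold, adjusted p = 0.00014). Aar2, which takes part in assembly of the U5 spliceosome particle, was at 74.4 to 127 CPM in WSB and at 0 to 35 CPM in 129 clones (5.05-fold, adjusted p = 0.00159).

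Other genes that were higher in WSB had an overlapping partner or a wide spread. Egf, the ligand of the EGF receptor, stood at 106, 214, 74.9 and 279 CPM in WSB and at 0 to 9.2 CPM in 129 clones (log2 fold change 4.70 ± 0.59, SE, adjusted p = 4.91e-05), and Gm42697 shares 607 bp of exons with it. It was low in both ESC libraries, at 8.79 CPM in WSB and 6.3 CPM in 129. Dnahc8, an axonemal dynein gene, was at 496, 1563, 487 and 363 CPM in WSB, with clone 23 far above the others, and at 20.5 to 116 CPM in 129 clones (log2 fold change 3.57, or 2.87 without WSB clone 23, adjusted p = 0.00012), and AC165951.2 shares 443 bp with it. Trpm3, a cation channel gene, was at 75.9 to 135 CPM against 9.996 to 13.8 CPM (adjusted p = 7.46e-05, partner C330002G04Rik with 351 bp). Ccnyl1, a cyclin-like gene, was at 92.9 to 169 CPM against 4.6 to 19.99 CPM (adjusted p = 3.74e-05, partner 2810408I11Rik with 205 bp). Gm16325, an antisense RNA that shares 1054 bp with 4930503B20Rik, was at 139.6 to 346 CPM in WSB and had 3 counts over the 129 group, a ratio of 57.6 with a counting interval of 19.3 to 283. In each of these genes the groups did not overlap.

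The largest fall was that of Slc7a11, the cystine and glutamate exchanger that supplies cysteine for glutathione. It lies on the minus strand of chromosome 3, from 49892526 to 50443614, and overlaps no gene on the opposite strand. The 129 clones 1, 5, 8 and 17 stood at 1168, 1642, 1219.5 and 1177 CPM, and WSB clones 12, 23, 25 and 28 at 0, 9.3, 0 and 8.44 CPM, 2 counts in all. The ratio of the groups was 341, with a counting interval of 94.2 to 2820 (adjusted p = 5.2e-10, edgeR). In 129 cells in 2iS it was at 989 and 1102 CPM, close to the same clones in ESC/LIF, and NOD clones were between, at 56.1 and 59.4 CPM. The WSB ESC library was at 8.79 CPM and the 129 ESC library at 523 CPM.

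Ntan1, an amidase for N-terminal asparagine in the N-degron pathway, stood at 40.5, 18.6, 28.1 and 33.8 CPM in WSB and at 488, 634, 585 and 409 CPM in 129 clones (15.3-fold lower, adjusted p = 8.94e-08, edgeR). The 129 cells in 2iS (473 and 367 CPM) and the NOD clones (546 and 446 CPM) lay with 129 cells in ESC/LIF. Pdxdc1, which shares 713 bp of exons with Ntan1 on the opposite strand, was lower in WSB too, by 0.58 on the log2 scale (adjusted p = 0.0411). Sycp1, a protein of the meiotic synaptonemal complex with no overlapping gene, had 0 to 18.7 CPM in WSB and 149.9 to 359.9 CPM in 129 clones (adjusted p = 3.14e-05). In 129 cells in 2iS Sycp1 was lower than in the same clones in ESC/LIF, at 51.6 and 80.8 CPM (adjusted p = 0.0108 with the clone as a block, 0.0801 by DESeq2). Kif24, a kinesin that limits cilium assembly, was at 20.2 to 55.8 CPM in WSB and at 92.1 to 252 CPM in 129 clones (5.36-fold lower, adjusted p = 0.000337). Its level in 129 cells in 2iS was 181 and 154 CPM. E130003G02Rik, an antisense RNA that shares 1307 bp with the NMDA receptor gene Grin1, held 1 count in WSB and 287 in 129 clones, where it ranged from 92.1 to 715 CPM. The 2 male 129 clones gave its lower values.

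Lower genes without an overlapping partner also included Nkx6-3, a homeobox gene, at 9.36 to 30.4 CPM in WSB and 113 to 295 CPM in 129 clones (adjusted p = 6.99e-05), and Cltb, a clathrin light chain, at 9.3 to 35.4 against 81.9 to 177 CPM (adjusted p = 0.000438). Zdhhc17, a palmitoyltransferase, was at 9.36 to 37.2 against 101 to 170.3 CPM (adjusted p = 0.00109). Zdhhc17 was at 77.4 and 73.4 CPM in 129 cells in 2iS, and Cltb at 25.8 and 36.7 CPM, so that for Cltb these cells lay at the upper edge of the WSB range.

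**Figure D2:**
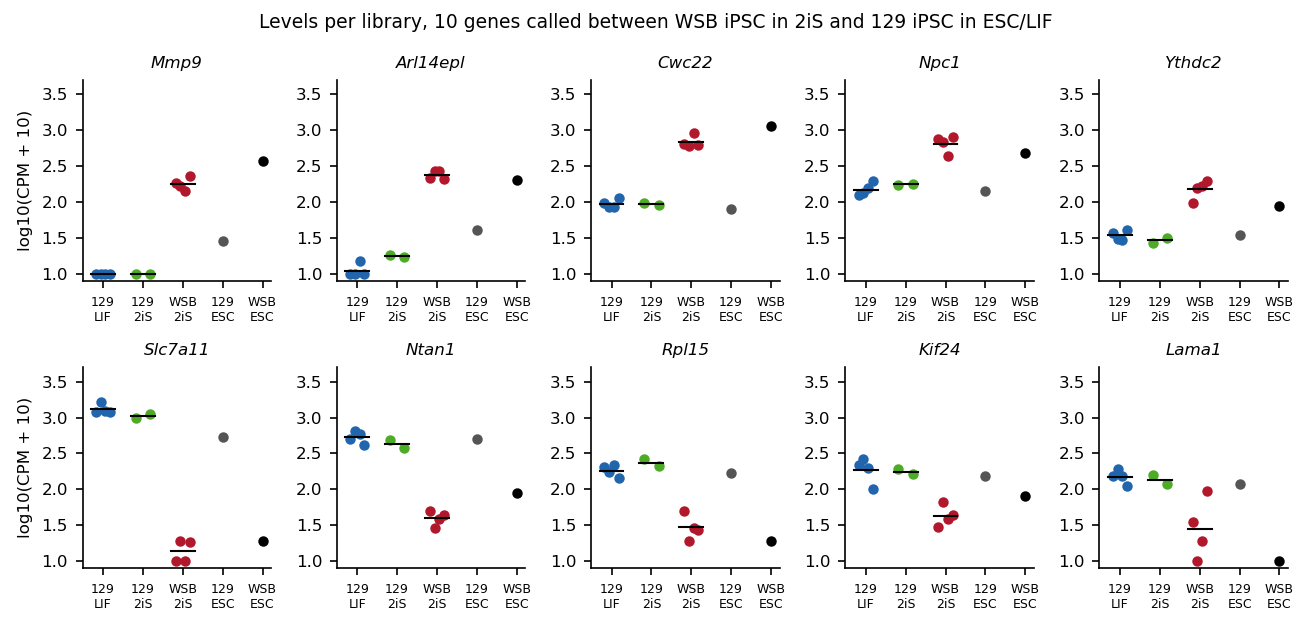
Levels of 10 genes as log10(CPM + 10) in 129 iPSC in ESC/LIF (4 libraries), 129 iPSC in 2iS (2), WSB iPSC in 2iS (4), and 1 ESC library of each strain, with a point per library and a line at the group mean of the plotted values. For Mmp9 and Slc7a11 the 129 cells in both media lie together, with the 4 WSB clones apart from them, and the ESC library of each strain lies on the side of its strain.

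The 129 clones moved to 2iS give values for the medium within 1 strain, but medium and passage changed together. Clones 1 and 17 were at passages 21 and 20 in ESC/LIF and at passages 31 and 30 in 2iS. The part of each cannot be told apart, and differences between media below include that of passage. Between 129 clones 1 and 17 in 2iS and the same clones in ESC/LIF, 178 of 2076 autosomal genes were called (8.57%, edgeR), 95 with the clone as a replicate block, which compares each clone with itself, and 43 by DESeq2. The p-values below for medium come from the blocked fit. These clones in ESC/LIF are part of the main comparison, so the values of both stand side by side and are not independent. Of the 207 called genes with groups that did not overlap, both 129 libraries in 2iS lay at or past the WSB range in 36, at or past the range of 129 in ESC/LIF in 66, and between or on different sides in 105. The choice of these genes used the ESC/LIF but not the 2iS libraries. The split therefore does not divide them into genes of medium and of strain, and it was not made for the other tested genes. With both groups in 2iS, WSB clones differed from 129 clones 1 and 17 in 101 of 2205 genes (4.58%), with 72 to 133 when 1 WSB library was left out. These 129 clones are both male and at passages 31 and 30, whereas the WSB clones are 2 male and 2 female at passages 16 to 20. Sex and passage thus differ beside strain in this contrast, and the part of passage was not tested. With male clones only, 259 of 2146 genes were called.

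Mterfd2, a mitochondrial transcription terminator family gene on chromosome 1 (93299211 to 93305915, minus strand), had the smallest p of all. It stood at 1918, 1962, 1714 and 2159 CPM in 129 clones in ESC/LIF and at 40.5, 27.9, 46.8 and 59.1 CPM in WSB (41.1-fold lower, adjusted p = 1.57e-10, edgeR). The 129 clones in 2iS were at 8.6 and 249.7 CPM, the log2 fold change between media being -4.06 (adjusted p = 0.00101, though 0.352 by DESeq2). Both ESC libraries were also low, at 52.7 CPM in WSB and 94.5 CPM in 129. Sned1 shares 1855 bp of exons with Mterfd2.

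The noncoding RNAs E230016M11Rik and C330022C24Rik followed the same order. E230016M11Rik was at 1439.6 to 2189 CPM in 129 cells in ESC/LIF, at 149.8 to 414 CPM in WSB (6.4-fold lower, adjusted p = 1.85e-06) and at 103 and 316 CPM in 129 cells in 2iS (between media, adjusted p = 0.000347). Its opposite-strand partner is the stress gene Gadd45a, which shares 337 bp with it. C330022C24Rik, which shares 177 bp with 1190003J15Rik, was at 624 to 947 CPM, at 70.8 to 144 CPM in WSB (6.38-fold lower, adjusted p = 1.85e-06) and at 155 and 220.3 CPM in 129 cells in 2iS (between media, adjusted p = 0.00282). In both cases all cells in a medium with inhibitors, the ESC of both strains and the NOD female clones included, lay below the 129 cells in ESC/LIF. A low level was not particular to these cells in the case of C330022C24Rik, which was low in both EpiSC lines. For E230016M11Rik the NOD EpiSC line was low, but the 129 EpiSC line lay within the range of 129 cells in ESC/LIF. The NOD and 129 EpiSC lines were at 4.86 and 13.3 CPM for C330022C24Rik, and at 384 and 1654 CPM for E230016M11Rik. The part of the medium in these levels was not tested. A930004D18Rik moved in the opposite sense, at 10.2 to 20.4 CPM in 129 cells in ESC/LIF, 93 to 147 CPM in WSB (7.01-fold higher, adjusted p = 4.18e-05) and 86 and 80.8 CPM in 129 cells in 2iS (between media, adjusted p = 0.0445, though 0.481 by DESeq2).

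Nphs1, which encodes the kidney slit protein nephrin, and its antisense RNA Nphs1as share 597 bp of exons. Nphs1 stood at 470.0 to 805 CPM in 129 clones in ESC/LIF and at 75.9, 167, 253 and 8.44 CPM in WSB (4.99-fold lower, adjusted p = 0.00113), and Nphs1as at 279 to 869 CPM and at 8.44 to 74.9 CPM (13.8-fold lower, adjusted p = 3.14e-05). In 129 cells in 2iS Nphs1 was at 0 and 22 CPM and Nphs1as at 0 and 29.4 CPM, so that 3 of the 4 WSB clones were above these for Nphs1. The noncoding RNA 1700071M16Rik was at 235 to 459.8 CPM in 129 cells in ESC/LIF, at 9.36 to 45.5 CPM in WSB and at 8.6 and 7.34 CPM in 129 cells in 2iS (between media, adjusted p = 0.000836). It shares 319 bp with Pla2g7.

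Genes had been named by the study for its own comparison of media, so their direction here is no independent evidence, since 129 clones 1 and 17 are shared. Of the 5 tested, 3 were called, all lower in WSB (60%, against 11.8% of all tested genes called in either direction), Nphs1, Kif3c and Col18a1. Col18a1, a basement membrane collagen, was at 56.2 to 177 CPM in WSB and 225 to 363 CPM in 129 cells in ESC/LIF (2.65-fold lower, adjusted p = 0.00385), with 34.4 and 80.8 CPM in 129 cells in 2iS. Kif3c, a kinesin motor that shares 2617 bp with 1110002L01Rik, was at 996 to 1106 CPM in WSB and 1129.5 to 3040.1 CPM in 129 clones (adjusted p = 0.0178), and lost its call without 129 clone 1, 129 clone 17 or WSB clone 12 (adjusted p of 0.0521 to 0.0748). Basp1, a membrane protein of growth cones, was not called, at 428 to 1123 CPM in WSB and 654 to 942 CPM in 129 clones (adjusted p = 0.948), while 129 cells in 2iS were at 163 and 389 CPM. Il17d, a cytokine, was at 42.2 to 122 against 99.96 to 276 CPM (adjusted p = 0.0538). Ank1, an ankyrin of the membrane skeleton, was too low to be tested and had 2 counts over the WSB and 158 over the 129 clones, of which clone 1 gave 114. Rad9a and Srr, named by the study for NOD males, had log2 fold changes of -0.07 and 0.27 and were not called.

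**Figure D3:**
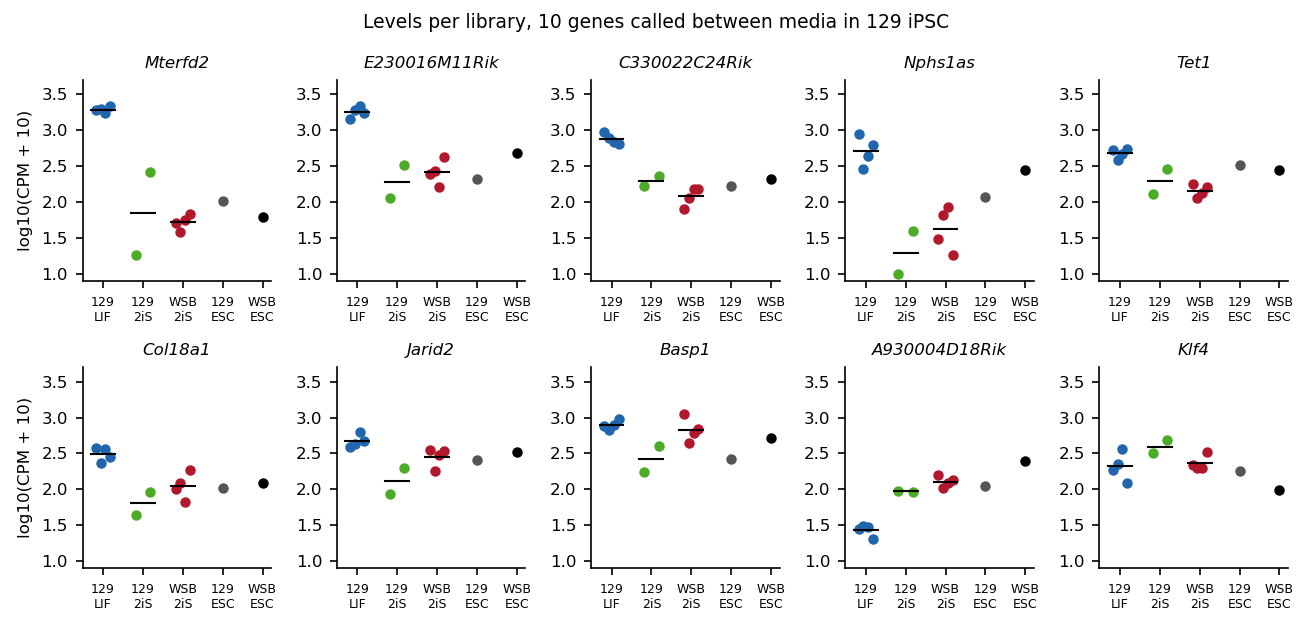
Levels of 10 genes that differed between media in 129 clones 1 and 17, as log10(CPM + 10), with the groups as in the plot of the leading genes. For Mterfd2, E230016M11Rik, C330022C24Rik and A930004D18Rik the 129 libraries in 2iS lie towards the WSB clones, and for Basp1 and Jarid2 the 129 libraries in 2iS lie below all or nearly all WSB clones.

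Of 14 tested naive pluripotency factors 1 was called, Nanog (7.14%, against 11.8% of all tested genes), and the median log2 fold change of the list was 0.06. Nanog stood at 121, 112, 112 and 127 CPM in WSB and at 59.8, 61.3, 40.0 and 30.7 CPM in 129 clones (2.55-fold higher, log2 fold change 1.35 ± 0.29, SE, adjusted p = 0.00478, edgeR), without overlap. The 129 cells in 2iS were at 77.4 and 103 CPM, between the groups, and in ESC the order was the other way, with 70.3 CPM in WSB and 139 CPM in 129. Nanog lies on chromosome 6, whose genes were shifted as a whole in WSB clones, and with the library size set per autosome its log2 fold change was 1.05 (adjusted p = 0.029). Zfp42 (Rex1), Dppa5a and Mybl2 had overlapping groups, with Zfp42 at 214 to 515 CPM in WSB and 399 to 538 CPM in 129 clones (adjusted p = 0.824).

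None of the 4 reprogramming factors carried by the cassette was called. Pou5f1 (Oct4) was at 549 to 709 CPM in WSB and 594 to 689.7 CPM in 129 clones, Sox2 at 296 to 374 and 211 to 379.8 CPM, Klf4 at 186 to 321 and 113 to 355 CPM, and Myc at 112 to 273 and 184 to 271 CPM. Their log2 fold changes were 0.08 to 0.14, with adjusted p of 0.79 to 0.85. Counts of the cassette and of the cells' own genes were not separated. Myc was at 8.79 CPM in the WSB ESC and 12.6 CPM in the 129 ESC library, which carry no cassette. Klf4 and the naive factor Tfcp2l1 rose in 129 clones moved to 2iS (log2 fold change 1.30 and 1.51 in the blocked fit, adjusted p = 0.0392 and 0.0175, and 0.124 and 0.0545 by DESeq2), and in WSB clones they overlapped with 129 in ESC/LIF. In WSB clone 28 alone were both at levels of the 129 cells in 2iS, with 321 CPM for Klf4 and 379.9 CPM for Tfcp2l1.

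Few members of the signalling lists reached a testable level. None of the 3 tested LIF/STAT3 genes, 2 FGF/ERK output genes, 3 Wnt genes and 3 formative or primed markers was called. Jak1, the kinase below the LIF receptor, was at 76 to 96.1 CPM in WSB and 95 to 198 CPM in 129 clones (adjusted p = 0.157). Ccnd1, a cyclin induced by both ERK and Wnt signals, was at 84.4 to 142 and 101 to 129.9 CPM (adjusted p = 0.726). Etv5, an ERK-induced ETS factor, was at 27.9 to 142 and 64.4 to 116 CPM (adjusted p = 0.795).

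Among 9 tested genes of DNA methylation, its removal and its readers 1 was called (11.1%, against 11.8% of all tested genes). Tet1, the dioxygenase that oxidises methylcytosine in naive cells, was at 167, 102, 122 and 152 CPM in WSB and at 515, 375, 455 and 542 CPM in 129 clones (3.16-fold lower, adjusted p = 8.5e-05, edgeR). The 129 clones in 2iS stood at 120.5 and 279 CPM, lower than the same clones in ESC/LIF (adjusted p = 0.0158 with the clone as a block, 0.0733 by DESeq2). Dnmt1, Trim28 and Zfp57 had log2 fold changes of -0.07, -0.05 and -0.09. Of 9 Polycomb and trithorax genes 2 were called (22.2%, against 11.8% of all tested genes). Suz12 was higher and Eed lower, though both encode core subunits of Polycomb repressive complex 2. Suz12 was at 211 to 319 CPM in WSB and 61.4 to 129.9 CPM in 129 clones (2.86-fold, adjusted p = 0.0005), and Eed at 84.3 to 177 and 245 to 308 CPM (1.86-fold lower, adjusted p = 0.0202), a call that was lost without 129 clone 1 or WSB clone 25 (adjusted p = 0.0672 and 0.0732). In 129 cells in 2iS Suz12 was at 240.9 and 117.5 CPM, the first within the WSB range, and Eed at 283.9 and 213 CPM. Gm26563 shares 178 bp with Suz12, and E230029C05Rik shares 261 bp with Eed. Suz12 lies on chromosome 11, and with the library size set per autosome its log2 fold change was 1.14 in place of 1.52 (adjusted p = 0.00408). Jarid2, a cofactor of the same complex, was at 167 to 339 and 373 to 609.8 CPM and not called (adjusted p = 0.11), while it stood at 77.4 and 191 CPM in 129 cells in 2iS (between media, adjusted p = 0.0106, though 0.0612 by DESeq2).

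Of 9 enzymes of threonine, glycine and one-carbon metabolism, 2 were called, both lower (22.2%, against 11.8% of all tested genes called in either direction). Gldc, the glycine decarboxylase of the glycine cleavage system, was at 121, 74.4, 46.8 and 50.7 CPM in WSB and at 327, 238, 255 and 276 CPM in 129 clones (3.27-fold lower, adjusted p = 0.00064). Psph, the last enzyme of serine synthesis, was at 55.6 to 65.5 and 120.0 to 225 CPM (2.35-fold lower, adjusted p = 0.0122), and Cct6a shares 452 bp with it. The call of Psph was lost without 129 clone 5 or WSB clone 12 (adjusted p = 0.0508 and 0.0543). In 129 cells in 2iS Psph was at 77.4 and 29.4 CPM, on both sides of the WSB range, and Gldc at 249.5 and 161.6 CPM. Tdh, the threonine dehydrogenase on which mouse ESC depend, was at 109.8 to 223 and 143 to 225 CPM and not called. None of 10 tested glycolysis genes, 8 nuclear respiratory chain genes, 18 cell cycle and replication genes and 9 imprinted genes was called, with list medians of 0.00, 0.01, -0.03 and 0.24. Mki67, a proliferation marker, lay lower in every WSB clone, at 162 to 228 against 235 to 385 CPM, but did not pass (adjusted p = 0.0587). Peg10, an imprinted gene, was at 140.4 to 903 CPM in WSB and 221 to 405 CPM in 129 clones and fell to 0 and 22 CPM in 129 cells in 2iS (between media, adjusted p = 0.00542). Of the germline, 2-cell-like and interferon response lists 1 gene each reached a testable level, of which Sycp1 was called, and of the MHC class I list 0.

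Of 28 tested cytosolic ribosomal protein genes 5 were called, 2 higher and 3 lower, a share of 17.9% against 11.8% of all tested genes, and the median log2 fold change of the list was 0.04. Rps2 had 2 counts over the WSB clones and 100 over the 129 clones (92.1 to 207 CPM), a ratio of 40.0 with a counting interval of 10.8 to 334, and Snhg9 shares 14 bp with it. Rpl15 was at 9.3 to 40.5 CPM in WSB and 133 to 205 CPM in 129 clones (6.75-fold lower, adjusted p = 6.26e-05, partner Nkiras1 with 105 bp, log2 fold change -2.76, or -3.36 without WSB clone 12), and Rps26 at 18.7 to 112 and 113 to 219.9 CPM (3.11-fold lower, adjusted p = 0.00652). All 3 were at the 129 level in 129 cells in 2iS, for example 258 and 198 CPM for Rpl15, and lower in the WSB than in the 129 ESC library. Rpl3 (2.07-fold higher, adjusted p = 0.0237) and Rpl32 (1.61-fold higher, adjusted p = 0.0342) were not called by DESeq2, which gave adjusted p of 0.148 and 0.0513. Each lost its call in 6 of the 8 fits that left out a library, with adjusted p of 0.0578 to 0.0819 for Rpl3 and 0.0503 to 0.108 for Rpl32. Cand2 shares 53 bp with Rpl32 and was itself higher by 0.54 on the log2 scale (adjusted p = 0.0304). Rpl32 lies on chromosome 6, and with the library size set per autosome its log2 fold change was 0.39 in place of 0.69 (adjusted p = 0.255). Ribosomal protein genes have many near-identical pseudogenes, so that how the aligner placed their reads in each strain can change these values, and they are uncertain.

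Of 15 tested adhesion and cytoskeleton genes 1 was higher and 3 lower (26.7%, against 11.8% of all tested genes, median -0.19). Cdh1, the epithelial cadherin of naive colonies, was at 359, 363, 356 and 379.9 CPM in WSB and at 267, 170.3, 185 and 287 CPM in 129 clones (1.74-fold higher, adjusted p = 0.0217), a call lost without 129 clone 5, 129 clone 8 or WSB clone 25 (adjusted p of 0.0519 to 0.0723). The laminin chain genes were lower, Lama1 at 25.3, 0, 9.36 and 84.4 CPM against 102 to 184 CPM (4.4-fold, log2 fold change -2.14, or -3.19 without WSB clone 28, adjusted p = 0.00775) and Lamc1 at 83.7 to 194 against 235 to 381 CPM (2.23-fold, adjusted p = 0.0072). In 129 cells in 2iS the laminin genes stood at 146 and 110.2 CPM for Lama1 and 396 and 455 CPM for Lamc1. Among fibroblast markers Sparc was higher in WSB, at 116 to 262 CPM against 41.4 to 129.9 CPM (adjusted p = 0.0408). Its groups overlapped and the call was lost in 6 of the 8 fits that left out a library (log2 fold change 0.92 to 1.68 over the 8 fits) and, as Sparc lies on chromosome 11, with the library size set per autosome (adjusted p = 0.216).

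**Figure D4:**
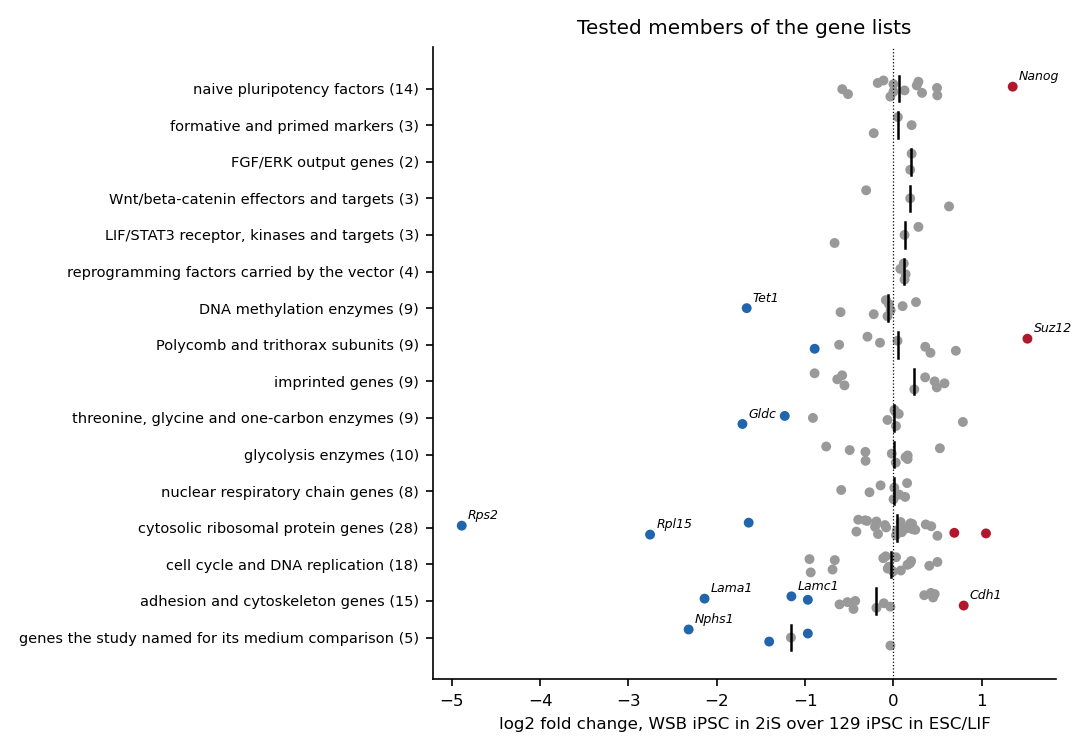
Log2 fold change of each tested member of the gene lists between WSB iPSC in 2iS and 129 iPSC in ESC/LIF, with the number tested in parentheses. Red and blue points are members called higher or lower, grey points were not called, black bars are list medians and the dotted line is the median of all tested genes at -0.01, from which most lists differ little while single members such as Rps2, Rpl15, Tet1 and Nanog stand apart.

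Genes of chromosomes 6 and 11 were shifted upward as a whole. The median log2 fold change was 0.35 over 110 tested genes of chromosome 6 and 0.42 over 201 tested genes of chromosome 11, with 74.5% and 83.6% of the genes above 0. In the other autosomes the median lay between -0.13 and 0.07. Chromosome 6 held 15 genes called higher and 4 lower (17.3% of those tested), and chromosome 11 held 25 higher and 4 lower (14.4%). The share was 11.8% over all tested genes, and on the other autosomes 5.83% (chromosome 8) to 18.6% (chromosome 3). Of the 118 genes higher in WSB, 40 lay on chromosomes 6 and 11, which held 110 and 201 of the 2016 tested genes. Outside them 78 were higher and 111 lower of 1705 tested. The shift was spread along each chromosome, with medians of 0.36, 0.36 and 0.34 over 3 successive, equally large sets of genes along chromosome 6 and of 0.36, 0.45 and 0.42 over those of chromosome 11.

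The shift came from 3 of the 4 WSB clones. Taking each gene's deviation from its mean over the 8 libraries, less the median of the library, the median on chromosome 11 was 0.26, 0.26 and 0.28 in clones 12, 23 and 25 and -0.13 in clone 28, and in 129 clones it was -0.25 to -0.13. On chromosome 6 it was 0.25, 0.19 and 0.15 in clones 12, 23 and 25, -0.03 in clone 28 and -0.20 to -0.09 in 129 clones. Clone 28 was highest on chromosome 18, at 0.27. The WSB ESC library was at -0.09 on chromosome 6 and -0.08 on chromosome 11, within or next to the 129 range, and the 129 clones in 2iS were at -0.10 and -0.10 and at -0.18 and -0.13. One of the NOD clones, 52, was at 0.15 and 0.11. The study counted chromosomes in metaphase spreads and sequenced clones it took as chromosomally normal. DNA copy number per chromosome was not measured here, and its part in these medians was not tested. With the library size set per autosome 203 genes were called, 188 of them among the 237, and 14 of the 40 higher genes on chromosomes 6 and 11 stayed called.

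**Figure D5:**
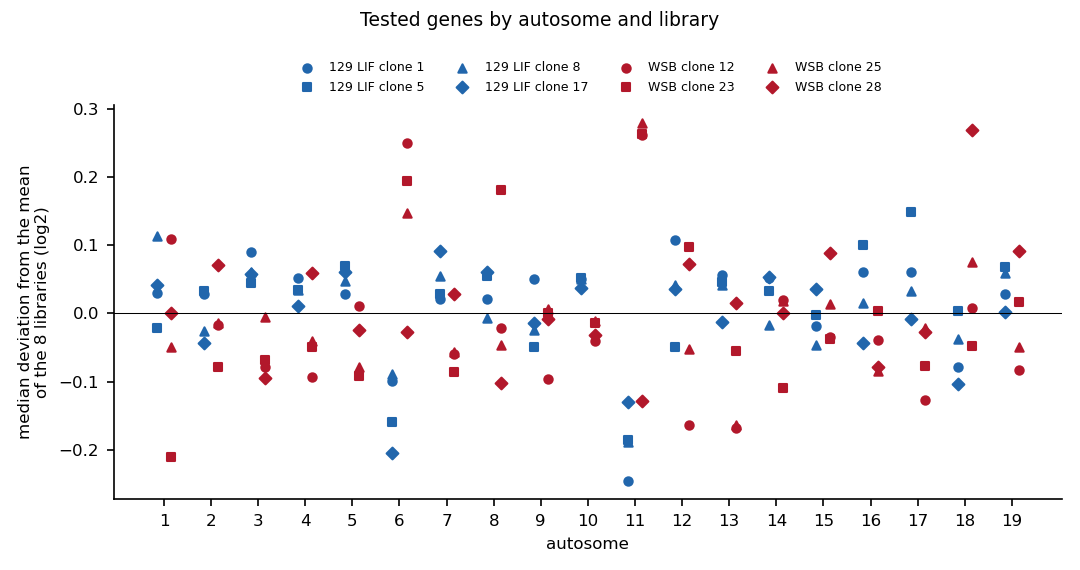
Median deviation of the tested genes of each autosome from their mean over the 8 libraries (log2, less the library's own median), with a point per library, blue for 129 iPSC in ESC/LIF and red for WSB iPSC in 2iS. On chromosome 11 WSB clones 12, 23 and 25 lie at 0.26 to 0.28, and clone 28 lies with the 129 clones.

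Both groups held 2 male and 2 female clones, which allowed a test of whether the difference between the groups was another in females than in males. Of 2667 autosomal genes 2 passed (0.075%, edgeR interaction contrast), 163 had an unadjusted p under 0.05, and DESeq2 called 1. Rbfa, a mitochondrial ribosome binding factor on chromosome 18, was higher in WSB males (1269.8 and 768 CPM) than in 129 males (115 and 102 CPM), and in females WSB clones were at 214 and 447 CPM and 129 clones at 409 and 545 CPM. The interaction was -3.69 on the log2 scale, female minus male (adjusted p = 0.000114). AC131065.2 shares 648 bp with Rbfa. Lgi1, a secreted leucine-rich protein, was at 132 and 187 CPM in WSB males and 4.6 and 0 CPM in 129 males, and at 83.7 and 25.3 CPM in WSB females and 40.9 and 129.9 CPM in 129 females (interaction -5.97, adjusted p = 0.0133), and Gm42723 shares 532 bp with it. The number of such genes was 2 to 11 when 1 library was left out, the 11 without WSB clone 25.

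The ESC libraries of the strains share no library with the iPSC and were both grown with inhibitors. Among called genes with at least 10 counts in the pair, the WSB ESC differed from the 129 ESC in the same direction as the iPSC in 154 of 227 (67.8%), against 911 of 1753 (52%) among genes not called. By direction the share was 77% of 113 genes higher and 58.8% of 114 genes lower in WSB. With uniquely aligned pairs as the library size these shares were 63.7% and 70.2%, so which of them was larger depended on the scaling. Cwc22, Mmp9, Gm16325 and Ccnyl1 on the higher side and Slc7a11, Rpl15, Ntan1 and Lama1 on the lower side had the direction of the iPSC, and Nanog, Col18a1, Nphs1, Kif3c and E230016M11Rik had the opposite one. With 1 library per ESC line these differences have no replicate check.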

How the data were processed

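The authors trimmed the read pairs, aligned them to GRCm38 with TopHat2 2.1.1, counted them on genes with HTSeq and deposited raw counts per gene for each library. The strand setting and annotation release are not given in the sources used here. Counts were used as deposited, without the rows that name no gene. WSB iPSC and 129 iPSC in ESC/LIF were compared with edgeR 4.0.16 in R 4.3.3 (TMM, filterByExpr, glmQLFit, glmQLFTest), adjusted over all tested genes, with DESeq2 1.42.0 as an alternative. No 2 libraries agreed within sampling noise (chi-square per degree of freedom at least 1.69). CPM were scaled by TMM over 17 libraries, with the male NOD clones left out. P-values measure the spread between clones. Intervals and floors cover counting error only. The 129 clones in 2iS bear the numbers of the clones in ESC/LIF in the titles, so the numbers pair these samples. Deviations of clone 1 from the group means correlated at 0.067 over 2160 genes between the media. Positions come from GENCODE M21, to which 98.5% of the symbols were matched. The genes named were those with the largest changes among groups that did not overlap (8 in each direction, and 6 without opposite-strand exons), the 5 smallest p in each direction, list members (called ones, then by level) and called genes of the interaction. Members and lists were chosen with earlier results of these data known. Alternatives are given in the closing section.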

Additional observations from a re-analysis of the deposited data

Results flagged for a closer look

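In 174 groups of 4 libraries (the named genes, and the medians of chromosomes 6 and 11), the gap of the highest or lowest library to the next, divided by the range, passed Dixon's 95% critical value in 14, and chance flags about 1 in 20. In WSB clones these were Klf4 (ratio 0.842) and Tfcp2l1 (0.855), both highest in clone 28, Atp5a1 (0.852, highest in clone 28), Jak1 (0.847, lowest in clone 28), Dnahc8 (0.889) and Peg10 (0.892), both highest in clone 23, and Cwc22 (0.841, highest in clone 25). The median of chromosome 11 was lowest in WSB clone 28 (0.956). In 129 clones these were Slc7a11 (0.892) and Zdhhc17 (0.873), both highest in clone 5, Ccnd1 (0.96, highest in clone 8), Myc (0.847) and Ank1 (0.9), both highest in clone 1, and Rps26 (0.919, lowest in clone 17). The test of whether the difference between the groups was another in females than in males singled out Rbfa, with an interaction of -3.69, and Lgi1, with -5.97 (log2, female minus male).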

How the results depend on the processing

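The 237 genes called between WSB and 129 in ESC/LIF became 532 with no filter on low counts (213 higher and 319 lower of 14355), 111 with 10 counts in every library, 140 at an adjusted p under 0.01, 108 in female clones only, 397 in a fit of 12 iPSC, 98 among genes without opposite-strand exons tested alone, 16 with samples grouped by source name and, chosen after seeing the data, 157 with clone 28 as the single WSB library, assumed to vary like the 129 clones. Uniquely aligned pairs as the library size gave 262 genes, 172 higher and 90 lower, and moved the median of all genes to 0.12. Leaving out 1 library gave 181 to 321. Other settings stayed within 1.5 times. For WSB against 129 in 2iS, 101 genes became 259 in males and 30 to 133 without 1 library, the lowest being 30 without 129 clone 1 and 52 without clone 17. For 129 in 2iS against ESC/LIF, 178 became 95 with the clone number as a replicate block, 43 by DESeq2 and 90 to 136 without 1 library, with 90 without clone 1 in ESC/LIF and 96 without clone 1 in 2iS. The 2 genes of the interaction became 1 by DESeq2 and 2 to 11 without 1 library, with 11 without WSB clone 25, 7 without WSB clone 28, 5 without 129 clone 5 and 4 without 129 clone 8. The cause of these changes was not tested, apart from the numbers of genes and samples that the settings themselves change. The share of called genes with the same direction in ESC stayed at 67% to 67.8%. Of the values of single named genes under the alternatives 1248 stayed on their side of the threshold, 52 lost a call, 23 gained one and 0 reversed a call. The depth limits what can be measured to levels above 3 counts, 13.8 to 30.7 CPM.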
